A study of Mus musculus with 96 samples.

Results

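Transcript levels of 10 transcription factors and coactivators of the thermogenic programme were examined in the interscapular brown fat (iBAT) and the inguinal white fat (iWAT) of wildtype mice and of mice lacking uncoupling protein 1. The 10 genes were the coactivators Ppargc1a and Ppargc1b, the determination factors Prdm16 and Ebf2, the estrogen-related receptors Esrra and Esrrg, the factor Irf4, the peroxisome proliferator-activated receptors Ppara and Pparg, and the CCAAT enhancer binding protein Cebpb. They were found by symbol among the 29072 gene symbols of the deposited table, and the rule that lists them uses measured values only to pick a transcript row. The members were, however, chosen with earlier results of these data known. Together they had 68 transcript rows, and each gene was represented by its row of highest mean over the 96 libraries.

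All mice were male C57BL/6J, of wildtype or Ucp1-KO genotype, labelled UCP1(-/-). They received for 4 weeks either a control diet with 13% of its energy from fat, at 20 °C or 30 °C, or a high fat diet with 48% of its energy from fat, at 30 °C. This gave 6 groups of 8 animals in each of 2 depots, and thus 12 groups of 8 libraries. The knockout is carried by the whole animal, 30 °C is the thermoneutral condition of the design, and no group was held below 20 °C or given a high fat diet at 20 °C. Each animal gave both depots, but the labels do not say which libraries share an animal, so libraries were treated as independent.

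Brown adipocytes burn fuel for heat: uncoupling protein 1 lets protons return across the inner mitochondrial membrane without making ATP. Cold acts through sympathetic nerves and cyclic AMP, which activates CREB-family factors and induces Ppargc1a, the coactivator PGC-1alpha. PGC-1alpha and its relative PGC-1beta, encoded by Ppargc1b, have no DNA-binding domain of the usual kind and act on genes through factors such as the estrogen-related receptors and PPARs. Prdm16 and Ebf2 maintain brown and beige adipocyte identity, Irf4 partners PGC-1alpha on the Ucp1 gene in response to cold, and PPARgamma and C/EBPbeta act early in the formation of all adipocytes.

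The RefSeq upstream windows of 3 members are shown because Ppargc1a and Cebpb are textbook targets of CREB, and because the Ppara window held the only NRF1 element found in the members' windows. Each window holds the 250 bases before the annotated start, 5′ to 3′ on the gene's strand, from GRCm38.p6. The Ppargc1a window is chr5:51567726-51567975 on the minus strand, the Cebpb window is chr2:167688665-167688914 on the plus strand, and the Ppara window is chr15:85735526-85735775 on the plus strand. Capitals mark the core TGACG of the cyclic AMP response element, which reads CGTCA where it lies on the other strand, and in Ppara also the longer NRF1 element, GCGCA followed by TGCGC.
Ppargc1a: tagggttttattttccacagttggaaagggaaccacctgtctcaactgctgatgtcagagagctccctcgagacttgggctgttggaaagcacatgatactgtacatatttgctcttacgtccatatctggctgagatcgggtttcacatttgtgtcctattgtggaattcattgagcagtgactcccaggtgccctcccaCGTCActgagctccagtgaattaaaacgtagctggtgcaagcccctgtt
Cebpb: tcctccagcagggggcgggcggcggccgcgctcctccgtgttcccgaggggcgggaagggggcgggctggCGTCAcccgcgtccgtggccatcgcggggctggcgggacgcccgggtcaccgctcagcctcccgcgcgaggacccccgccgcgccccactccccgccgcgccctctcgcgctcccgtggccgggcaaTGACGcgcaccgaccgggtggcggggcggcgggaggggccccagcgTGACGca
Ppara: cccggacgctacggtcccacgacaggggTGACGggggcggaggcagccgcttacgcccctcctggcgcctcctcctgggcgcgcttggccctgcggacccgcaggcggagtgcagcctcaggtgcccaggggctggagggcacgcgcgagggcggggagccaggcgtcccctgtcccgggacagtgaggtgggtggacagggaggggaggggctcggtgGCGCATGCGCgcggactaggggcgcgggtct
The core lay at -49 to -45 of Ppargc1a, at -180 to -176, -53 to -49 and -7 to -3 of Cebpb, and at -222 to -218 of Ppara, counted from the start. Of the 32851 mouse windows of this length, 17.8% held the core on either strand, 1.55% the full element TGACGTCA and 0.782% the NRF1 element, whose match in Ppara lay at -31 to -22. The estrogen-related receptor element TNAAGGTCA was held by 1.14% of windows, the PPAR element, AGGTCA repeated after 1 free base, by 0.0335%, the IRF element, GAAA repeated after 2 free bases, by 2.98%, and the EBF element, TCCC and GGGA around 2 free bases, by 0.779%. None of these 4 elements, and no full TGACGTCA, was found in the 13 windows of the 8 members with an entry. A match describes letters only.

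Ucp1, the disrupted gene, was read first. In iBAT its level was 3793 ± 751 (SD, n = 8) RPKM in wildtype at 20 °C, 8227 ± 577 at 30 °C and 6466 ± 902 with the high fat diet, against 1005 ± 91.7, 736 ± 168 and 778 ± 147 in the knockout. The lowest wildtype library had 2428 and the highest knockout library 1145, so the genotypes did not overlap in iBAT. In iWAT the Ucp1 level was higher in the knockout at 20 °C (306 ± 128) than in the wildtype (133 ± 96.7), so Ucp1 does not check the genotype labels there. The 6 brown adipocyte markers Cidea, Cox7a1, Cox8b, Slc27a2, Kcnk3 and Otop1 summed to group means of 1756 to 4686 RPKM in iBAT and of 96.4 to 1794 in iWAT. Libraries held 8.91 to 19.2 M reads (median 11.85), recovered from the spacing of low values. A 5′ coverage index, the log2 level of 5′ rows against longer rows of 634 genes, ran from -0.6985 to -0.0744 over libraries and is given where it touches a result. RPKM, reads per kilobase and per M reads, is a level per length, and all differences below are log2 differences of RPKM + 1 from limma with Benjamini-Hochberg adjusted p-values. In whole tissue, fewer cells of a type and less RNA per cell cannot be told apart.

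The members were mostly higher in iBAT than in iWAT, with Irf4 the reverse. In wildtype mice at 30 °C, 9 of 10 members were higher in iBAT and Irf4 was lower, in a comparison in which 81.3% of 16310 genes passed the test, 19.5% as higher and 61.8% as lower. Ppargc1a differed most of the members, with 67.4 ± 21.1 RPKM in iBAT and 1.86 ± 0.264 in iWAT (log2 difference 4.52, adjusted p = 4.94e-37), followed among the members higher in iBAT by Esrrg (3.23), Ppara (3.12), Cebpb (2.74), Ppargc1b (2.36) and Esrra (2.13), while Irf4 differed by -2.23. Pparg, the adipocyte receptor shared by both depots, differed by 0.36, and its call was lost with quantile normalization (0.177, adjusted p = 0.0684). For 8 of the 10 genes the 8 iBAT libraries did not overlap the 8 iWAT libraries in this group, 7 of them with iBAT above, and over all 16310 genes 59.7% did not overlap, 13% with iBAT above and 46.6% with iBAT below. In the other 5 groups 8 or 9 members were higher in iBAT and Irf4 was lower, where 80.2% of genes passed in wildtype at 20 °C (15.8% higher, 64.4% lower), 78.6% on high fat (16.7%, 61.9%), 62.9% in the knockout at 20 °C (20.2%, 42.7%), 62.2% at 30 °C (26.3%, 35.8%) and 69.5% under the high fat diet (24.5%, 45%). The Irf4 difference was smallest in wildtype at 20 °C (-0.63, adjusted p = 0.0157) and was no longer called there with median-ratio scaling (-0.088, adjusted p = 0.748) or without 7 outlying libraries (-0.398, adjusted p = 0.183). With median-ratio scaling or quantile normalization that comparison had 9 members higher and 0 lower in iBAT. Prdm16 differed by 0.51 between depots in wildtype at 20 °C and by 0.02 in the knockout on high fat, where it did not pass. Ebf2 was 7.94 ± 1.12 in iBAT and 8.09 ± 1.195 in iWAT of wildtype mice at 20 °C and did not pass either, a difference of -0.02 that turned to 0.487 after median-ratio scaling and 0.602 after quantile normalization. The median of all genes in that comparison was -0.429 as deposited and -0.055 with median-ratio scaling.

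**Figure D1:**
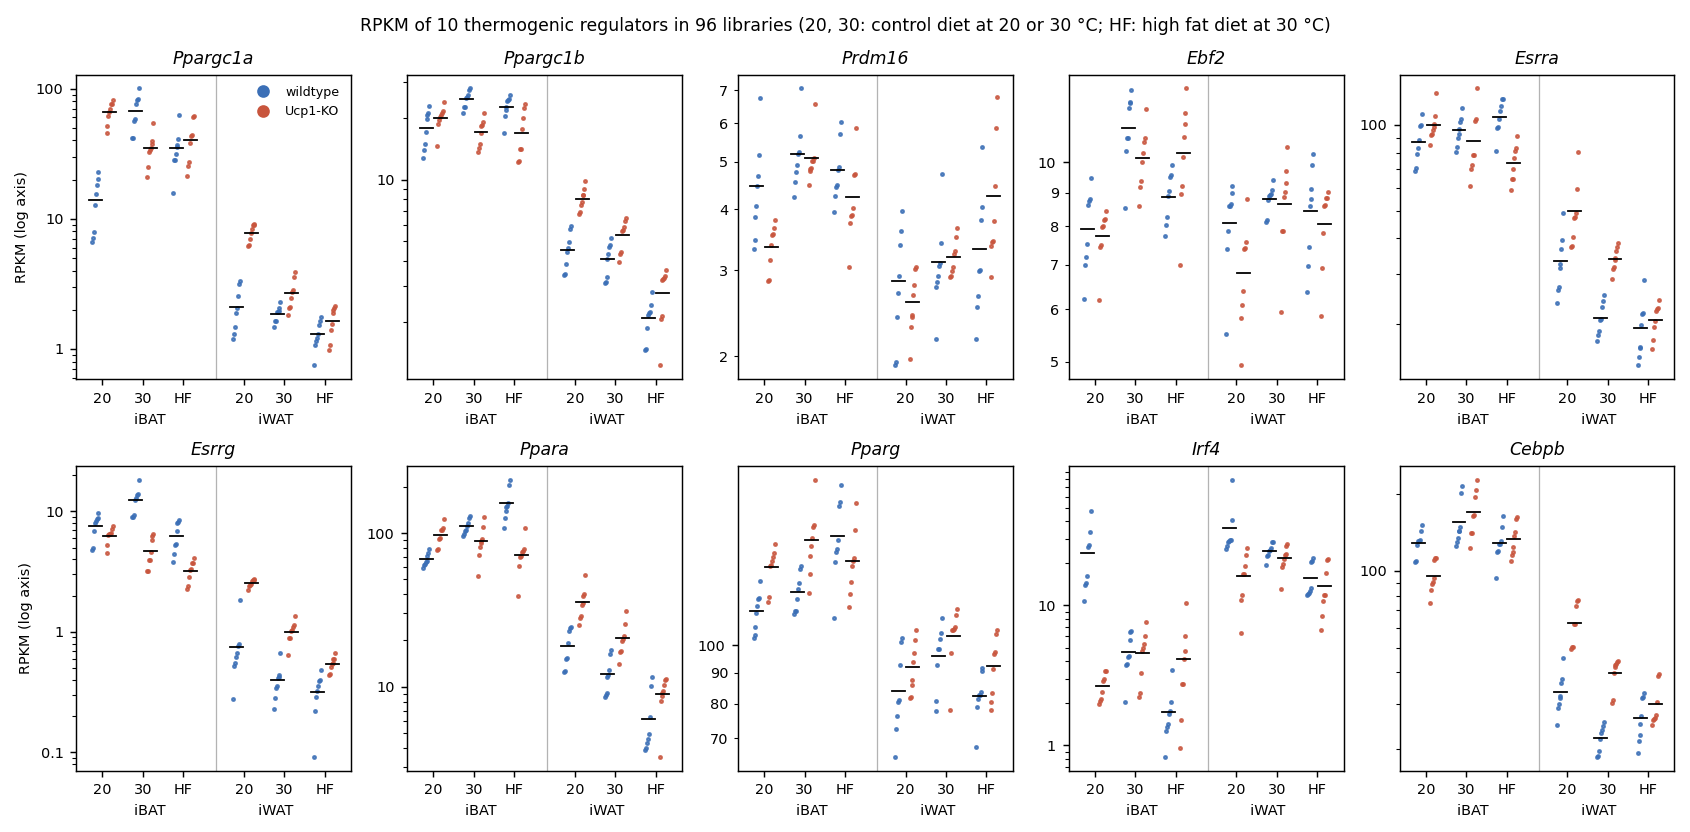
Level of each member in every library (points, RPKM, log axis) in the 12 groups, with bars at the group means. The Ppargc1a points of wildtype iBAT at 20 °C lie between 6.66 and 22.8 and those at 30 °C between 41.9 and 100.3, while the Irf4 points of the same groups lie in the opposite order.

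Ppargc1a in iBAT was low in wildtype mice at 20 °C and high in the other groups. The 8 wildtype libraries at 20 °C ran from 6.66 to 22.8 RPKM (median 14.1), those at 30 °C from 41.9 to 100.3 (median 66.9), and the knockout libraries at 20 °C from 45.2 to 81.4 (median 67.9). No wildtype library at 20 °C reached the lowest library of either other group. The 3 lowest wildtype libraries at 20 °C, with 6.66, 7.13 and 7.86, were also those with a coverage index of -0.388 to -0.341, whereas the other 5, with 12.7 to 22.8, had an index of -0.124 to -0.102. In the knockout at 30 °C the range was 20.9 to 54.2 (median 34.2), in wildtype on high fat 15.7 to 62.6 (median 33.5), and in the knockout on high fat 21.3 to 61.9 (median 40.5). Ppargc1a was therefore lower at 20 °C than at 30 °C in wildtype (log2 difference -2.26 ± 0.24 SE, adjusted p = 1.84e-10) and higher at 20 °C in the knockout (0.93 ± 0.24, adjusted p = 0.000612). The knockout exceeded the wildtype at 20 °C by 2.27 ± 0.24 (adjusted p = 9.96e-11) and lay below it at 30 °C by -0.92 (adjusted p = 0.000853). These contrasts share groups, and the test of the difference between the genotypes' temperature differences gave 3.19 ± 0.339 (adjusted p = 3.09e-10), the 10th largest of 14807 genes in size. On the high fat diet wildtype Ppargc1a fell by 0.95 (adjusted p = 0.00172), and the genotypes then differed by 0.19 (adjusted p = 0.49). With the coverage index in the fit the wildtype temperature difference of Ppargc1a was -2.01, the genotype difference at 20 °C 2.00, the knockout's temperature difference 0.52, the genotype difference at 30 °C -0.528 and the wildtype diet difference -0.548, each still called, and the difference on high fat became 0.426 (adjusted p = 0.032).

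Circadian transcripts also differed between the same wildtype iBAT groups. Arntl, a core activator of the clock, was 1.49 ± 0.587 RPKM at 20 °C and 7.42 ± 1.48 at 30 °C, whereas Per3, a period gene, was 15.9 ± 2.42 and 4.97 ± 1.34, and Dbp, a clock output factor, 32.4 ± 12.4 and 11.1 ± 3.96. In the knockout at 20 °C the levels were 3.58 for Arntl, 8.90 for Per3 and 18.0 for Dbp, between those of the wildtype groups. Arntl and Per3 libraries of the wildtype groups did not overlap, whereas the lowest Dbp library at 20 °C, 19.169, lay below the highest at 30 °C, 19.235. Nr1d1, also of the clock, was 22.6 ± 10.2 and 28.7 ± 9.76 in these groups, with overlap. Arntl, Per3 and Dbp were chosen after their values were seen. Of 14 clock genes tested 5 were higher and 4 lower in wildtype iBAT at 20 °C, where 11.6% of all genes were higher and 33% lower. No time of collection is in the labels, and the part of collection time in the Ppargc1a and Irf4 levels was not tested.

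The transcript row affected the level of Ppargc1a but not its order at 20 °C and 30 °C on control diet. The row used, of 2698 bases, gave group means of 13.9 and 67.4 RPKM in wildtype iBAT at 20 °C and 30 °C, and the RefSeq row of 6464 bases gave 11.6 and 51.6. A shorter row of 1614 bases gave 7.16 and 29.9. In the knockout the row used gave 34.8 at 30 °C and 40.2 on high fat, and the shorter row gave 18.5 and 34.1, its highest group mean. The difference between diets in the knockout thus depended on the row, and it passed the test neither with the row used nor with the RefSeq row (0.389, adjusted p = 0.17). The mean coverage index was -0.247 in the knockout at 30 °C and -0.319 on high fat, and its part in these levels was not tested.

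**Figure D2:**
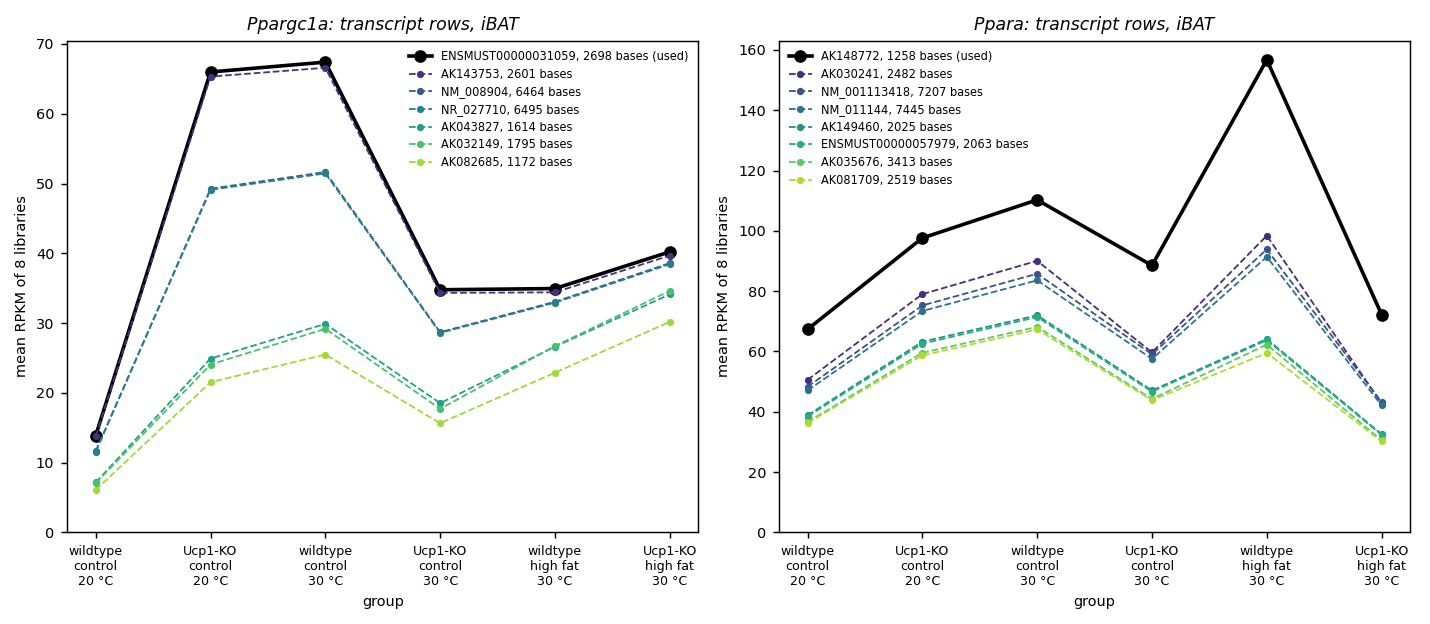
Group means in iBAT (RPKM) of each deposited transcript row of Ppargc1a and Ppara, 1 line per row, across the 6 groups. The Ppargc1a rows share the low value in wildtype at 20 °C, and the shorter rows have their highest mean in the knockout on high fat (34.1 for the row of 1614 bases).

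In iWAT, Ppargc1a was highest in the knockout at 20 °C. The knockout libraries there ran from 6.17 to 9.07 RPKM (median 8.06), above every other iWAT library: wildtype at 20 °C ran from 1.18 to 3.34 (median 1.964), wildtype at 30 °C from 1.48 to 2.28 (median 1.91) and the knockout at 30 °C from 1.82 to 3.87 (median 2.62). The high fat groups were the lowest, with 1.30 ± 0.329 in wildtype and 1.64 ± 0.460 in the knockout. The knockout exceeded the wildtype at 20 °C by 1.53 ± 0.126 (adjusted p = 4.49e-13), a ratio of means of 3.70, and its own 30 °C group by 1.27 ± 0.126 (adjusted p = 5.84e-11). The temperature difference of the wildtype was 0.09 (adjusted p = 0.644), and 0.188 (adjusted p = 0.301) with the coverage index in the fit. The 3 lowest wildtype libraries at 20 °C, with 1.18, 1.29 and 1.48, had an index of -0.699 to -0.495, and the other 5, with 1.87 to 3.34, one of -0.224 to -0.194. With the index in the fit the genotype difference at 20 °C was 1.41, still called. As fitted without it, the genotypes' temperature differences differed by 1.19 ± 0.179 (adjusted p = 2.63e-05). At 30 °C the genotype difference was 0.35 (adjusted p = 0.0421), which was not called with a pseudocount of 0.1 (0.475, adjusted p = 0.0528) or without the filter on low values (adjusted p = 0.0658). In the knockout the high fat diet lowered Ppargc1a by -0.48 (adjusted p = 0.00442). Between the depots, the wildtype temperature difference of Ppargc1a differed by -2.35.

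Ppargc1b, the PGC-1beta gene, moved less than Ppargc1a in iBAT and with it in iWAT. In iBAT its levels ran from 12.8 to 23.0 RPKM (median 18.5) in wildtype at 20 °C, from 21.3 to 28.1 (median 25.2) at 30 °C and from 13.6 to 21.2 (median 17.6) in the knockout at 30 °C. The wildtype and knockout libraries at 30 °C did not overlap (log2 difference -0.52 ± 0.119, adjusted p = 0.000188), and on high fat the knockout was also lower (-0.43, adjusted p = 0.00177). The wildtype was lower at 20 °C than at 30 °C by -0.47 ± 0.119 (adjusted p = 0.00126), a call lost with median-ratio scaling (-0.308, adjusted p = 0.0592) and quantile normalization (-0.291, adjusted p = 0.0843). In iWAT, the knockout at 20 °C had 8.06 ± 1.04 RPKM and no library below 6.76, whereas the other 5 groups had no library above 6.45. The genotype difference at 20 °C was 0.72 (adjusted p = 4.47e-06). High fat lowered Ppargc1b in iWAT of both genotypes, by -0.72 in wildtype (adjusted p = 7.02e-05) and -0.77 in the knockout (adjusted p = 8.37e-06), with no overlap of libraries between diets in either genotype.

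**Figure D3:**
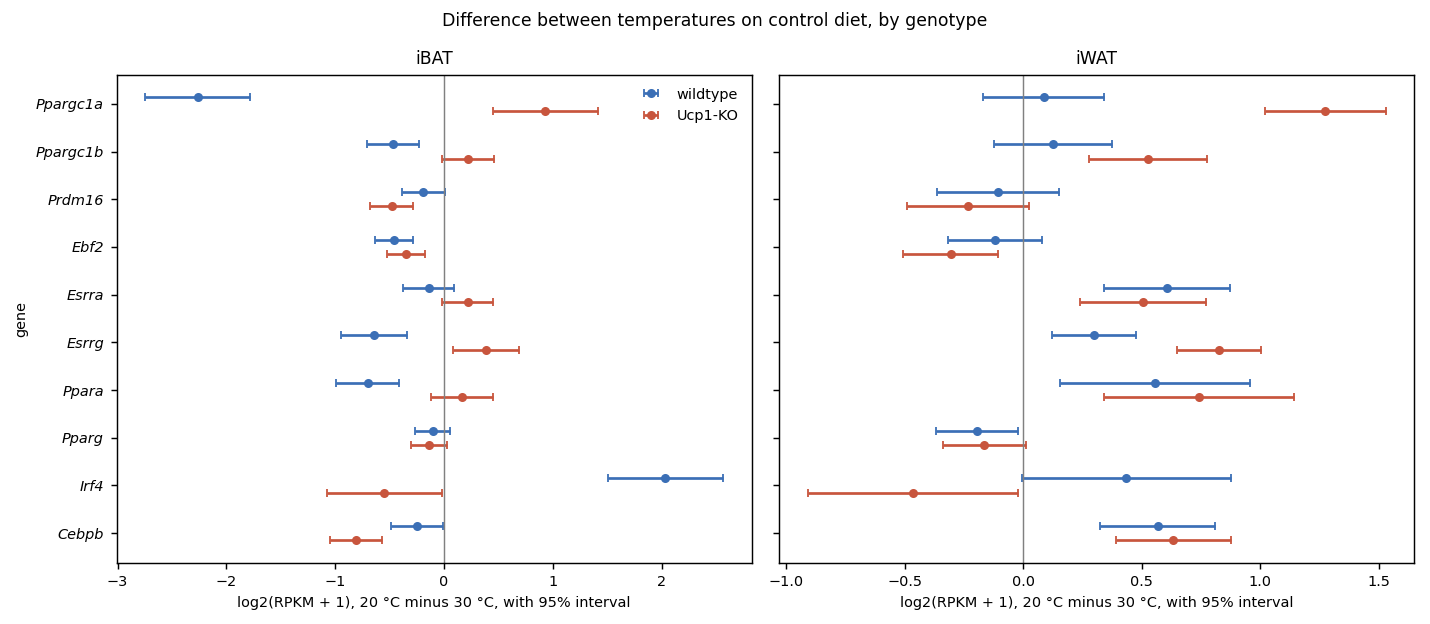
Difference between 20 °C and 30 °C on control diet for each member (log2 of RPKM + 1, 20 °C minus 30 °C, with 95% interval) in wildtype and knockout mice, in iBAT and iWAT. Ppargc1a lies at -2.26 in wildtype and 0.93 in knockout iBAT, and Irf4 at 2.03 and -0.55.

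Prdm16 and Ebf2, which set brown adipocyte identity, spanned narrow ranges. Prdm16 group means ran from 3.35 to 5.20 RPKM in iBAT, a ratio of highest to lowest of 1.55, and from 2.58 to 4.26 in iWAT (1.65). Its lowest iBAT group was the knockout at 20 °C, where the libraries ran from 2.85 to 3.81 (median 3.47) and did not overlap those of the knockout at 30 °C, 4.49 to 6.57 (median 4.94). Prdm16 was lower at 20 °C in the knockout by -0.48 (adjusted p = 2.62e-05) and lower in the knockout than the wildtype at 20 °C by -0.31 (adjusted p = 0.00971). Over all genes the knockout's median temperature difference in iBAT was -0.335 as deposited, -0.04 after median-ratio scaling and 0.02 after quantile normalization. Under those scalings the Prdm16 temperature difference became -0.142 (adjusted p = 0.217) and 0.008, and the genotype difference was no longer called when transcript rows were summed (-0.286, adjusted p = 0.0876). No comparison called Prdm16 in iWAT.

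Ebf2 was 7.74 to 11.3 RPKM in the iBAT group means and 6.80 to 8.79 in iWAT. In wildtype iBAT it was lower at 20 °C, with 6.21 to 9.45 (median 8.06), than at 30 °C, with 8.53 to 12.9 (median 11.5), a difference of -0.46 ± 0.087 (adjusted p = 2.52e-05). High fat lowered it in wildtype iBAT by -0.31 (adjusted p = 0.00453). In the knockout the 20 °C libraries, 6.19 to 8.45, lay below all 30 °C libraries, 8.59 to 12.0, and the difference of -0.35 (adjusted p = 0.000412) turned to 0.031 after median-ratio scaling and 0.104 after quantile normalization. In iWAT of the knockout at 20 °C Ebf2 was lower than at 30 °C by -0.31 (adjusted p = 0.00777) and lower than in wildtype by -0.22 (adjusted p = 0.0444), and both turned with median-ratio scaling, to 0.007 and 0.104, the second also with quantile normalization, to 0.101.

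The estrogen-related receptors, which drive mitochondrial genes together with PGC-1alpha, were highest in different iBAT groups. Esrrg, at 12.3 ± 3.19 RPKM, was highest in wildtype at 30 °C, where libraries ran from 9.01 to 18.3 (median 12.7), and the knockout at 30 °C ran from 3.17 to 6.44 (median 4.29) with no overlap. The genotype difference at 30 °C was -1.23 ± 0.151 (adjusted p = 1.97e-09), and on high fat, where the knockout had the lowest iBAT mean (3.21 ± 0.667), it was -0.77 (adjusted p = 2.47e-05). In wildtype, Esrrg was lower at 20 °C than at 30 °C by -0.65 ± 0.151 (adjusted p = 0.000501) and lower on high fat than on control diet by -0.87 (adjusted p = 1.47e-05), the latter with no overlap of libraries. The knockout was higher at 20 °C than at 30 °C by 0.39 ± 0.151 (adjusted p = 0.0209), 0.297 (adjusted p = 0.0861) with the coverage index in the fit and 0.735 with median-ratio scaling. The genotypes' temperature differences of Esrrg differed by 1.03 ± 0.214 (adjusted p = 0.000102).

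In iWAT Esrrg was low, and 1 group stood above the rest. The knockout at 20 °C ran from 2.24 to 2.755 RPKM (median 2.55), above every library of the other 5 groups, the highest of which was a wildtype library at 20 °C with 1.82. The wildtype at 20 °C had a median of 0.641, the knockout at 30 °C one of 1.03 and the wildtype at 30 °C one of 0.385. The genotype difference was 1.05 ± 0.088 at 20 °C (adjusted p = 6.72e-13) and 0.52 at 30 °C (adjusted p = 3.39e-05). At a median of 29 reads in wildtype at 20 °C and 21 at 30 °C, the wildtype temperature difference of 0.30 ± 0.088 (adjusted p = 0.015) was 0.155 (adjusted p = 0.212) without 7 outlying libraries and 0.68 with a pseudocount of 0.1. The genotype by temperature interaction of 0.53 ± 0.124 (adjusted p = 0.00492) was not called with that pseudocount (0.599, adjusted p = 0.145) or with summed rows (0.551, adjusted p = 0.0926).

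Esrra, the more abundant of the receptor pair, had iBAT group means from 73.7 to 107 RPKM and iWAT means from 19.4 to 49.9. In iBAT it passed in 1 comparison of genotype, temperature or diet: on high fat the knockout had 59.1 to 91.2 (median 73.3) and the wildtype 80.8 to 123 (median 108), a difference of -0.53 ± 0.117 (adjusted p = 0.000118). The row used has 567 bases, and the RefSeq row added calls in iBAT, among them a wildtype temperature difference of -0.236 (adjusted p = 0.016) and a knockout temperature difference of 0.321 (adjusted p = 0.00056). In iWAT Esrra was higher at 20 °C than at 30 °C in wildtype (0.61 ± 0.131, adjusted p = 0.000932) and in the knockout (0.51, adjusted p = 0.00116). It was higher in the knockout than in the wildtype at 20 °C (0.56, adjusted p = 0.000309) and at 30 °C (0.67, adjusted p = 0.000358), where the knockout's 28.9 to 38.4 lay above the wildtype's 17.5 to 25.4. With the coverage index in the fit the wildtype temperature difference was 0.383.

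Ppara, the PPARalpha gene of fatty acid oxidation, was the member most raised in wildtype iBAT by the high fat diet when its highest row was used. That row gave 59.4 to 78.6 RPKM (median 65.0) in wildtype at 20 °C, 95.7 to 129 (median 108) at 30 °C and 108 to 222 (median 149) on high fat. The temperature groups did not overlap and differed by -0.70 ± 0.143 (adjusted p = 7.8e-05). The diet difference of 0.475 ± 0.143 (adjusted p = 0.0084) rested on the row, which has 1258 bases: the RefSeq row of 7207 bases gave 85.8 and 93.9 (0.103, adjusted p = 0.596), the row of 2025 bases gave 72.0 and 64.1, and summed rows gave 0.063 (adjusted p = 0.763). On high fat the knockout had 39.1 to 107 (median 73.0), below every wildtype library, a difference of -1.12 ± 0.143 (adjusted p = 5.82e-09) and with the RefSeq row of -1.11. At 20 °C the knockout lay above the wildtype by 0.52 ± 0.143 (adjusted p = 0.00313) and at 30 °C below it by -0.35 (adjusted p = 0.0303), -0.551 with the RefSeq row. The genotypes' temperature differences differed by 0.87 ± 0.202 (adjusted p = 0.000406). Their diet differences differed by -0.77 ± 0.202 (adjusted p = 0.0146), a call lost with the RefSeq row (-0.558, adjusted p = 0.0634) and summed rows (-0.531, adjusted p = 0.0972).

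In iWAT Ppara was highest in the knockout at 20 °C, with 25.2 to 53.3 RPKM (median 34.6) against 12.5 to 24.4 (median 17.3) in wildtype, without overlap (0.93, adjusted p = 0.00011). At 30 °C the knockout was also higher (0.74, adjusted p = 0.00805). High fat lowered it by -0.91 in wildtype (adjusted p = 0.00112), to 6.21 ± 2.98, and by -1.15 in the knockout (adjusted p = 2.38e-05), to 8.94 ± 2.47. On high fat the genotypes differed by 0.50 (adjusted p = 0.406), with a 95% interval of 0.103 to 0.902 before adjustment. The wildtype temperature difference of Ppara, 0.56 ± 0.198 (adjusted p = 0.042), was lost under several alternatives, with 0.335 (adjusted p = 0.209) when the coverage index entered the fit and 0.376 (adjusted p = 0.238) without 7 outlying libraries.

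Pparg, the regulator of all adipocytes, varied least of the 10 genes: the ratio of its highest to its lowest group mean was 1.33 in iBAT and 1.26 in iWAT. Wildtype iBAT had 103 to 128 RPKM (median 115) at 20 °C, 113 to 135 (median 122) at 30 °C and 111 to 185 (median 147) on high fat, a diet difference of 0.29 (adjusted p = 0.00453). The knockout was higher by 0.24 ± 0.082 at 20 °C (adjusted p = 0.0164), which was 0.162 (adjusted p = 0.127) with median-ratio scaling. At 30 °C it was higher by 0.28 (adjusted p = 0.00292), which turned to -0.055 with that scaling. Its genotype by diet interaction in iBAT was -0.41 ± 0.116 (adjusted p = 0.0261), and adjusted p = 0.0584 when only the groups compared entered the fit. No temperature, genotype or diet comparison called Pparg in iWAT.

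Irf4, which joins PGC-1alpha on the Ucp1 gene and is also a factor of B and plasma cells and macrophages, had the widest range of the members in iBAT. Wildtype libraries at 20 °C ran from 10.8 to 47.2 RPKM (median 21.1), whereas the wildtype at 30 °C ran from 2.05 to 6.62 (median 4.33), the knockout at 20 °C from 1.99 to 3.40 (median 2.64) and the wildtype on high fat from 0.830 to 3.45 (median 1.55). Every wildtype library at 20 °C exceeded every other iBAT library, of which the highest, 10.4, was in the knockout on high fat. The ratio of the highest to the lowest group mean was 13.7. Irf4 was higher at 20 °C than at 30 °C in wildtype (2.03 ± 0.263, adjusted p = 2.17e-08), and in the knockout the difference was -0.55 (adjusted p = 0.057). The knockout was lower than the wildtype at 20 °C by -2.62 ± 0.263 (adjusted p = 2.47e-11), a ratio of means of 0.112, and the interaction was -2.58 ± 0.372 (adjusted p = 2.9e-07). The direction in wildtype iBAT at 20 °C was thus opposite to that of Ppargc1a. High fat lowered Irf4 in wildtype by -1.04 (adjusted p = 0.00184), and the knockout on high fat exceeded the wildtype by 0.76 ± 0.263 (adjusted p = 0.0108), a call lost with median-ratio scaling (0.536, adjusted p = 0.0741) and quantile normalization (0.414, adjusted p = 0.158).

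The B cell markers Cd79a, Cd79b, Ms4a1 and Pax5 summed to 0.131 to 1.005 RPKM in the iBAT libraries of wildtype at 20 °C, where Irf4 was highest, and 0 of 4 had a group mean of 0.5 or more there. The macrophage markers summed to 20.4 to 31.3 in that group, the lowest of the 6 iBAT groups, and to 50.1 to 93.6 in wildtype at 30 °C. In the knockout on high fat the B cell sum ran from 1.54 to 28.8 (median 3.10), and in wildtype on high fat from 0.501 to 1.24. The part of B cell and macrophage markers in the Irf4 levels of iBAT, in wildtype at 20 °C or on high fat, was not tested.

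In iWAT Irf4 was highest in wildtype at 20 °C, with 25.4 to 79.3 RPKM (median 29.2), and the knockout at 20 °C had 6.32 to 25.6 (median 16.8). The groups touched at 1 knockout library, and the difference was -1.10 ± 0.22 (adjusted p = 4.48e-05). The wildtype library with 79.3 had a coverage index of -0.546, and the median index of its group was -0.22. All 4 B cell markers were also lower in knockout iWAT at 20 °C than in wildtype, with sums of 147 to 259 RPKM in wildtype and 36.1 to 131 in the knockout. Of the macrophage markers 6 of 7 were lower, in a comparison in which 55% of all genes were lower. The sum of 5 T cell markers, Cd3d, Cd3e, Cd3g, Cd2 and Lck, was 85.9 to 163 in wildtype and 29.8 to 91.2 in the knockout. That of 5 preadipocyte and stromal markers was 166 ± 39.2 and 90.3 ± 19.2, whereas the brown adipocyte sum was higher in the knockout. The part of these markers in the Irf4 difference was not tested. High fat lowered Irf4 in both genotypes, by -0.66 in wildtype (adjusted p = 0.0378, and 0.059 without the filter on low values) and -0.69 in the knockout (adjusted p = 0.0174). In wildtype 0 of 4 B cell markers were called between diets, where 13.5% of all genes passed (9.69% higher, 3.84% lower). The wildtype B cell sum ran from 171 to 305 RPKM on control diet at 30 °C and from 108 to 365 on high fat. In the knockout it ran from 12.5 to 248 and from 66.1 to 276. The part of B cell markers in the Irf4 diet differences was not tested. The genotype by temperature interaction of -0.90 ± 0.311 (adjusted p = 0.0465) was lost under 7 alternatives, with adjusted p from 0.0731 to 0.165.

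**Figure D4:**
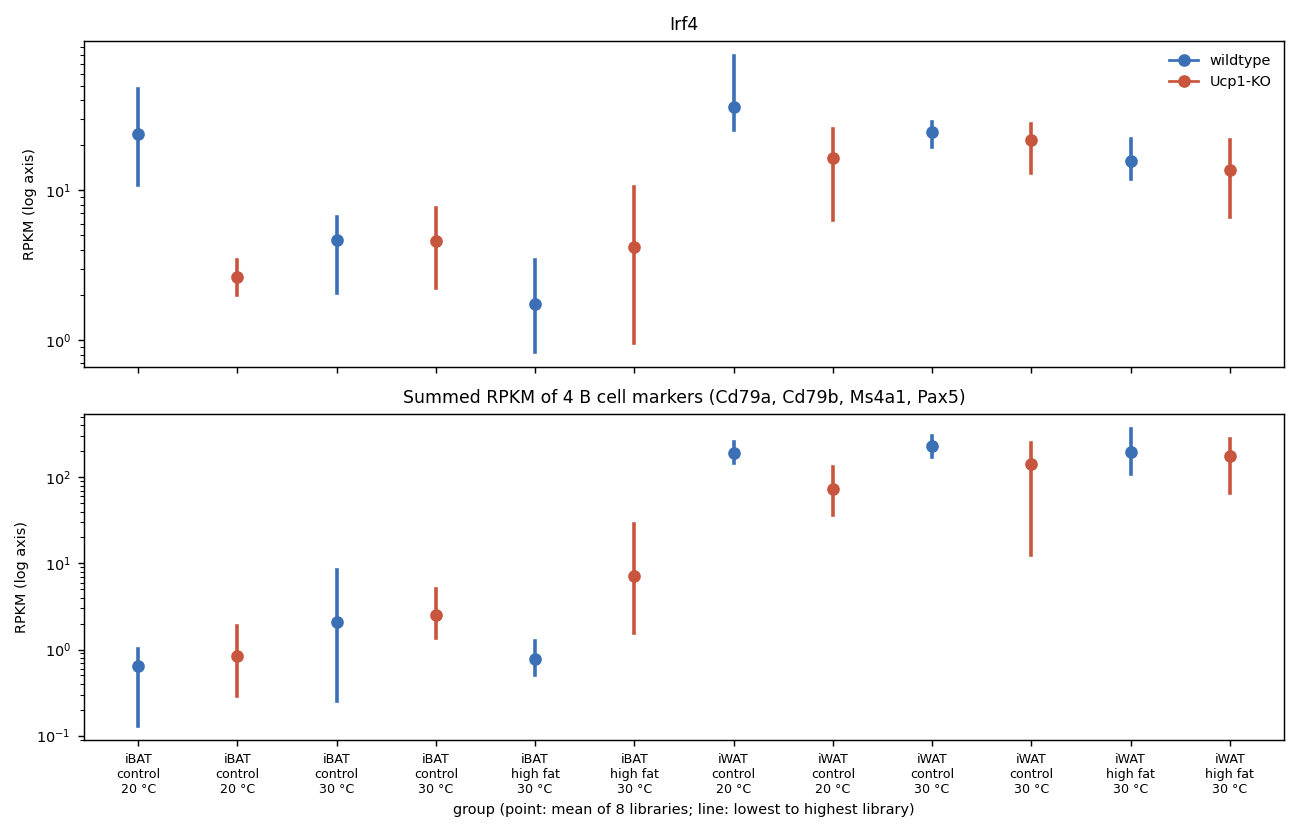
Irf4 level and the summed level of 4 B cell markers (RPKM, mean and range over 8 libraries, log axis) in each of the 12 groups. In iBAT of wildtype at 20 °C Irf4 has its highest iBAT mean, 23.7, where the B cell sum is 0.644, and in iWAT of the knockout at 20 °C the B cell sum has its lowest iWAT mean, 73.5.

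Cebpb, the C/EBPbeta gene of early adipogenesis and of cyclic AMP and inflammatory responses, differed by temperature in opposite directions in the 2 depots of the knockout. In iBAT the knockout had 75.0 to 112 RPKM (median 92.0) at 20 °C and 123 to 228 (median 165) at 30 °C, with no overlap (-0.81 ± 0.119, adjusted p = 6.47e-08). In iWAT it had 49.2 to 77.0 (median 62.0) at 20 °C and 30.3 to 44.4 (median 42.5) at 30 °C, again with no overlap (0.63, adjusted p = 2.49e-05). The test of the difference between depots gave -1.44 (adjusted p = 1.51e-10) in the knockout, the only member called, where 25.5% of genes passed (6.7% higher, 18.8% lower), and -0.81 in wildtype. Wildtype iBAT had 129 ± 14.9 at 20 °C and 155 ± 33.9 at 30 °C (-0.25, adjusted p = 0.0876), and the knockout was lower than the wildtype at 20 °C by -0.43 ± 0.119 (adjusted p = 0.00317). The iBAT genotype by temperature interaction was -0.56 ± 0.168 (adjusted p = 0.00463) and -0.309 (adjusted p = 0.146) with median-ratio scaling. Beside the iBAT values, the macrophage marker sum was 170 to 1112 RPKM in the knockout at 30 °C and 34.1 to 124 at 20 °C, and its part in the Cebpb level was not tested.

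In iWAT Cebpb was higher in the knockout at 20 °C (0.88, adjusted p = 8.92e-08) and at 30 °C (0.81, adjusted p = 3.54e-06), without overlap of genotypes at either temperature, and higher at 20 °C in wildtype (0.57 ± 0.12, adjusted p = 0.000733). Beside these iWAT values, the macrophage marker sum at 20 °C was 351 ± 93.5 in wildtype and 191 ± 49.4 in the knockout, and its part in the Cebpb level was not tested. High fat lowered Cebpb in the knockout by -0.40 (adjusted p = 0.0123), to 30.0 ± 5.87, whereas the wildtype had 22.1 ± 2.71 on control diet and 26.6 ± 5.26 on high fat, a difference of 0.24 (adjusted p = 0.19). The genotype by diet interaction in iWAT was -0.64 ± 0.17 (adjusted p = 0.0402), lost without the filter on low values (adjusted p = 0.0632), with median-ratio scaling (-0.712, adjusted p = 0.0599) and with the coverage index in the fit (-0.579, adjusted p = 0.0744). In iBAT of the knockout the diet difference was -0.33 (adjusted p = 0.046) and was lost under 8 of 10 alternatives.

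Counted over the 10 genes, wildtype iBAT at 20 °C against 30 °C called 1 member higher and 5 lower, where 44.6% of 14807 genes passed (11.6% higher, 33% lower). The knockout at 20 °C against 30 °C called 2 higher and 3 lower, where 73.4% passed (13.9% higher, 59.5% lower), and 8 members were called with array weights. Knockout against wildtype iBAT called 3 higher and 3 lower at 20 °C, where 37.8% of genes passed (24.7% higher, 13.1% lower). It called 1 higher and 4 lower at 30 °C, where 64.7% passed (54.2% higher, 10.5% lower), and 1 higher and 4 lower on high fat, where 63.9% passed (52.8% higher, 11% lower). High fat against control diet called 2 higher and 4 lower in wildtype iBAT, where 33% passed (18.5% higher, 14.5% lower), and 1 lower in the knockout, where 16.4% passed (8.35% higher, 8.02% lower). The iBAT genotype by temperature interaction was called for 6 members, 4 positive and 2 negative, where 52.4% of genes passed (11.9% positive, 40.5% negative), and the genotype by diet interaction for 3, 1 positive and 2 negative, where 6.55% passed (2.78%, 3.78%). In knockout iBAT, 6 of 6 brown adipocyte markers were lower and 7 of 7 macrophage markers higher than in wildtype on either diet at 30 °C, and on the high fat diet 4 of 5 skeletal muscle markers were higher. Their part in the members' genotype differences was not tested. In the knockout at 20 °C against 30 °C, 6 of 6 brown adipocyte markers were higher and 7 of 7 macrophage markers lower, and their part in the members' differences was not tested. The split of the calls moved with the scaling. With median-ratio scaling the knockout at 20 °C against 30 °C had 6 higher and 1 lower, and with quantile normalization 5 higher and 1 lower. The genotypes then differed for 0 higher and 7 lower at 30 °C and 0 higher and 6 lower on high fat, with either scaling. The genotype by temperature interaction had 6 positive and 1 negative with median-ratio scaling, the genotype by diet interaction 0 positive and 3 negative with quantile normalization, and the knockout's diet difference no member called with median-ratio scaling.

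In iWAT the knockout at 20 °C stood apart, with 6 members higher and 2 lower than in wildtype, where 64.8% of 15897 genes passed, 9.85% as higher and 55% as lower. The members' median difference was 0.642 and that of all genes -0.269. Against 30 °C the knockout at 20 °C had 6 higher and 1 lower (60.4% of genes passed, 9.02% higher, 51.4% lower), and the wildtype 4 higher and 0 lower (19.6% passed, 7.25% higher, 12.4% lower). At 30 °C, 5 members were higher and 0 lower in the knockout (23.8% passed, 7.54% higher, 16.2% lower). On high fat 0 members were called between genotypes with limma, where 0.283% of genes passed (0.195% higher, 0.0881% lower), 4 had an unadjusted p below 0.05, and 3 were called with array weights. High fat lowered 3 members in wildtype (13.5% of genes passed, 9.69% higher, 3.84% lower) and 7 in the knockout (24.4% passed, 16.1% higher, 8.31% lower), and raised none. On high fat 4 of 5 skeletal muscle markers were also lower in iWAT of each genotype, with sums of 42.0 to 331 RPKM on high fat and 11.4 to 8626 on control diet in wildtype, and 6 of 6 brown adipocyte markers were lower in the knockout. Their part in the lower members was not tested. The genotype by temperature interaction was called for 3 members, 2 positive and 1 negative, where 13.3% of genes passed (2.15% positive, 11.1% negative), and the genotype by diet interaction for 1, which was negative, where 1.33% passed (0.101%, 1.23%). The 20 °C minus 30 °C difference in wildtype differed between depots for 7 members, 6 of them negative, where 16.8% of genes passed (5.07% positive, 11.7% negative). The 6 brown adipocyte markers were all higher in knockout iWAT at 20 °C than in wildtype, with sums of 1290 to 3152 RPKM against 342 to 780.0. They were also all higher in the knockout at 30 °C, with sums of 385 to 654 against 125 to 272 in wildtype, and all higher at 20 °C than at 30 °C in each genotype. The part of brown adipocyte markers in the members' levels was not tested. With either scaling the knockout at 20 °C had 7 members higher and 1 lower than the wildtype, and 6 higher and 0 lower than at 30 °C. In wildtype at 20 °C against 30 °C quantile normalization gave 4 higher and 1 lower. The iWAT genotype by temperature interaction had 3 positive and 0 negative with median-ratio scaling, and 2 and 0 with quantile normalization.

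**Figure D5:**
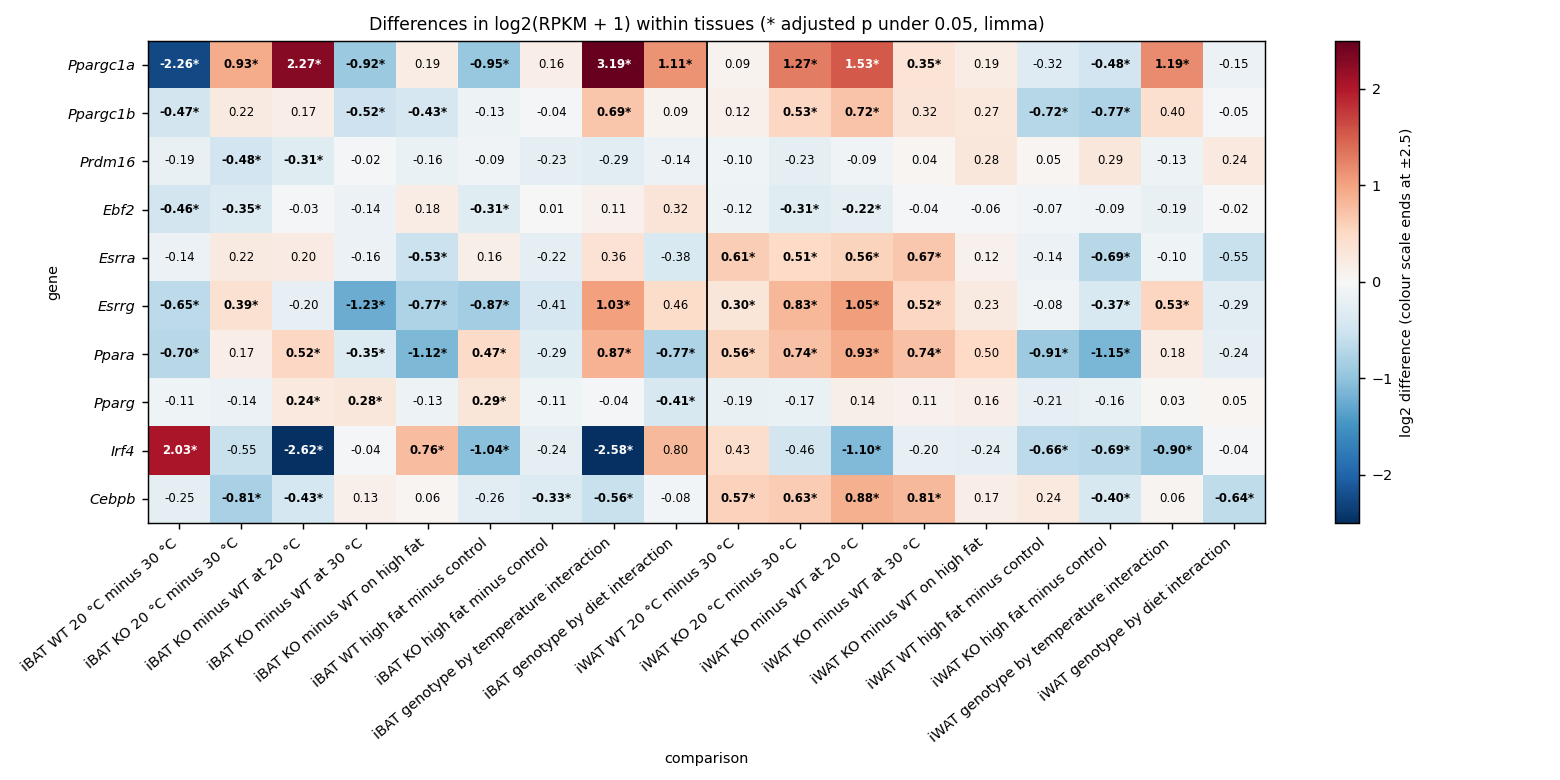
Differences of the 10 members (rows, log2 of RPKM + 1) in 18 comparisons within iBAT and iWAT (columns), with an asterisk where the adjusted p was below 0.05. The iWAT column of knockout against wildtype at 20 °C has 6 members higher and 2 lower, and the iWAT column of knockout against wildtype on high fat has no asterisk.

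Genes served by these regulators were counted from lists drawn up from general knowledge, but with earlier results of these data known. Of 20 genes of the estrogen-related receptors and PGC-1, such as Idh3a of the citric acid cycle and Atp5a1 of ATP synthase, 17 were higher and 0 lower in iWAT of the knockout at 20 °C than in wildtype (9.85% and 55% of all genes; median 0.759, all genes -0.269; Atp5a1 0.85, Uqcrc1 of complex III 0.94). In wildtype iWAT at 20 °C against 30 °C, 17 were higher and 0 lower (7.25% and 12.4% of all genes; median 0.743), and Ppargc1a differed there by 0.09, or 0.188 with the coverage index in the fit. In iBAT of wildtype, where Ppargc1a was lower at 20 °C, 5 of the 20 were higher and 0 lower (11.6% and 33% of all genes; median 0.146, all genes -0.123), Acadm of fatty acid oxidation (0.77) and Sdha of respiratory complex II (0.36) among them. In the knockout iBAT at 20 °C against 30 °C, 16 were higher and 0 lower (13.9% and 59.5% of all genes; median 0.763; Atp5a1 0.69, Ndufs1 of complex I 0.82, Uqcrc1 0.998). At 30 °C the knockout iBAT had 0 higher and 12 lower than the wildtype (54.2% and 10.5% of all genes; median -0.396), and on high fat 2 higher and 15 lower (52.8% and 11% of all genes). High fat lowered 19 of 20 in iWAT of the knockout (8.31% of all genes; median -0.627) and 3 in the wildtype (3.84% of all genes).

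Among 24 genes of PPARalpha, 16 were higher and 4 lower in knockout iWAT at 20 °C than in wildtype, where 9.85% of all genes were higher and 55% lower (median 1.02; Acot2, an acyl-CoA thioesterase, 2.35, Hadha of the trifunctional protein 1.33). In knockout iBAT at 20 °C 9 were higher and 2 lower than in wildtype (24.7% and 13.1% of all genes), led by the hormone Fgf21 (4.69) and Acot2 (2.96). Fgf21 was 0.384 ± 0.33 RPKM in that wildtype group and 36.3 ± 13.8 in the knockout, and which regulator raised it was not tested. Against 30 °C, knockout iBAT at 20 °C had 15 of the listed genes higher and 6 lower (13.9% and 59.5% of all genes, Hadha 1.01, Acadl 1.07). Against wildtype iBAT the knockout had 6 higher and 12 lower at 30 °C (54.2% and 10.5% of all genes) and 8 higher and 10 lower on high fat (52.8% and 11%). Of 19 genes of PPARgamma, 6 were higher and 2 lower in knockout iBAT at 20 °C (median 0.169, all genes 0.057), where 24.7% of all genes were higher and 13.1% lower. In knockout iWAT at 20 °C 6 of the PPARgamma genes were also higher and 2 lower (median 0.138, all genes -0.269), where 9.85% of all genes were higher and 55% lower. Relatives of Cebpb and Irf4 in the CEBP and IRF families numbered 13. In knockout iBAT at 20 °C 7 were higher and 1 lower than in wildtype (24.7% and 13.1% of all genes; Ddit3, the stress factor CHOP, 2.28; Irf7, an interferon factor, 1.97; Cebpa -0.99), and at 30 °C 11 were higher and 0 lower (54.2% and 10.5% of all genes; Irf7 3.59). In that tissue at 20 °C against 30 °C, 2 were higher and 11 lower (13.9% and 59.5% of all genes; median -1.19, all genes -0.335; Irf8, a myeloid factor, -2.36), and 7 of 7 macrophage markers were lower. Of 21 other coactivators and corepressors, 1 was higher and 17 lower in knockout iWAT at 20 °C than in wildtype (9.85% and 55% of all genes; median -0.409, all genes -0.269), and the gene that was higher was Sirt3, a mitochondrial deacetylase (0.63).

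Across the 12 group means of log2(RPKM + 1), the 3 genes most like each member were taken from 11917, and the correlations are descriptions, since the 12 points are 6 groups in each of 2 depots and share their libraries. Ppargc1a was most like Armc1 (Pearson r = 0.992), Gsk3a (0.992) and Them4 (0.987), and Ppargc1b most like Ppara (0.990), Slc4a4 (0.989) and Ubqln4 (0.989). Esrra was most like Ndufb10, Etfdh and Atp5o, all 0.994, which encode parts of complex I, of electron transfer from fatty acid oxidation and of ATP synthase. Ppara was most like Ppargc1b (0.990), Esrra (0.989) and Ubqln4 (0.984), and Esrrg most like Tmem246 (0.991), Taco1 (0.987) and Wipi2 (0.986). Irf4 was most like Grik5 (0.979), Mtss1 (0.976) and Tmem220 (0.976), and Cebpb most like Iba57 (0.986), Sla2 (0.982) and Rnmtl1 (0.980). Prdm16 reached 0.949 with Fam222a, Ebf2 0.951 with Hif1an and Pparg 0.978 with H2afy2. Within depots some pairs of members kept the correlation of the pooled points and others did not. Ppargc1a and Ppargc1b had r = 0.956 over 12 groups, 0.499 over the 6 iBAT groups and 0.899 over the 6 iWAT groups. Ppargc1a and Cebpb had 0.926, -0.165 and 0.910 in that order, whereas Esrra and Ppara had 0.989, 0.846 and 0.966.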

How the data were processed

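Poly(A)-selected stranded RNA libraries of 96 tissue samples were sequenced, per the labels' protocols, and CASAVA and bcl2fastq were used, per the submitters' processing notes. No aligner, counter or genome build is given in the sources used here. The authors deposited RPKM values per transcript row, 168326 rows for 96 libraries, with several rows per gene. Rows without an Entrez identifier, 13.76% of rows and 9.85% of the summed RPKM, were left out. From these values the row of highest mean was taken per symbol. Reads were recovered from the spacing of low values (94.9 to 95.7% of values came out whole within 0.05 read), which gave the depth of each library. The length of the Esrrg row could not be settled this way, so its read counts are approximate.

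Log2(RPKM + 1) was fitted with limma 3.58.1 (limma-trend, R 4.3.3) with a mean for each group, over genes that reached 0.5 RPKM in 8 or more libraries, per tissue (48 libraries, 6 groups) or over both (96 libraries, 12 groups). P-values were Benjamini-Hochberg adjusted over all genes of a comparison, with a threshold of 0.05, in 26 comparisons. Fold changes on this scale understate those of low genes. The fit was tested on simulated data. A few genes of the lists are not reported here and were left out of sums and counts.

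The members and the gene lists were chosen with earlier results of these data known. All 10 members are named, with up to 4 genes of smallest p per list and comparison, and the 3 genes most like each member; the clock genes were added after the data were seen. Alternatives were a pseudocount of 0.1, no filter, median-ratio scaling, quantile normalization, summed rows, only the groups compared and array weights, and, chosen after seeing the data, the RefSeq row, a 5′ coverage index as covariate and leaving out 7 outlying libraries. Upstream sequences were taken from RefSeq (GRCm38.p6) for 8 of 10 members, matched by symbol. The labels name separate animals but no batch, and the label numbers pair no libraries.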

Additional observations from a re-analysis of the deposited data

Results flagged for a closer look

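In 7 of the 120 sets of 1 gene in 1 group, a single library lay apart from the other 7 by more than Dixon's 95% critical value for 8 samples, and chance alone flags about 1 set in 20. In iBAT these were Prdm16 in the knockout at 30 °C (6.57 RPKM, group median 4.94) and Ebf2 in the knockout at 20 °C (6.19, median 7.99). These libraries had coverage indexes of -0.433 and -0.361, the lowest of their groups. In iWAT of wildtype at 20 °C the genes were Ebf2 (5.505, median 8.57), Esrrg (1.82, median 0.641) and Irf4 (79.3, median 29.2), each in a different library. The indexes of these libraries were -0.495, -0.212 and -0.546, and the group's median index was -0.22. The other 2 in iWAT were Ppara in the knockout on high fat (3.51, median 9.24) and Pparg in the knockout at 30 °C (78.0, median 106), with indexes of -0.196 and -0.2475. The part of coverage in the flagged values was not tested.

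The effect of temperature differed between genotypes in iBAT for Ppargc1a (3.19), Ppargc1b (0.685), Esrrg (1.03), Ppara (0.868), Irf4 (-2.58) and Cebpb (-0.562), each as the knockout's log2 difference minus the wildtype's. In iWAT it differed for Ppargc1a (1.19), Esrrg (0.529) and Irf4 (-0.899).

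The effect of the high fat diet differed between genotypes in iBAT for Ppargc1a (1.115), Ppara (-0.769) and Pparg (-0.405), and in iWAT for Cebpb (-0.643). The Ppargc1a value passed with an adjusted p of 0.0373 and was not called without the filter on low values (adjusted p = 0.0595) or with quantile normalization (1.078, adjusted p = 0.0582).

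The effect of temperature differed between iBAT and iWAT of wildtype mice, as the iBAT difference minus the iWAT difference, for Ppargc1a (-2.35), Ppara (-1.26), Esrrg (-0.942), Cebpb (-0.815), Esrra (-0.747), Ppargc1b (-0.590) and Irf4 (1.597). In the knockout it differed for Cebpb (-1.44).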

How the results depend on the processing

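Over all members, comparisons and alternatives, 2401 values kept their side of the threshold, 123 became called and 66 lost their call. Another 10, called in the main fit or the alternative, reversed direction. A change of direction where neither fit called the value was counted among the 2401. No paired analysis was possible because the label numbers are unique to each library and no label ties the 2 depots of an animal. The 10 reversals were these: median-ratio scaling gave Ebf2 0.031 and Pparg 0.276 for knockout iBAT at 20 °C against 30 °C, Pparg -0.055 for knockout against wildtype iBAT at 30 °C, and Ebf2 0.007 for knockout iWAT at 20 °C against 30 °C, 0.104 for knockout against wildtype iWAT at 20 °C and 0.487 for iBAT against iWAT in wildtype at 20 °C. Quantile normalization gave Prdm16 0.008 and Ebf2 0.104 for the first comparison, and Ebf2 0.101 and 0.602 for the last pair. Both scalings centre the median gene, which lay at -0.335 in the first comparison as deposited.

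Counts of called members moved in 8 of 26 comparisons by over 1.5 times. Array weights gave 8 in place of 5 for knockout iBAT at 20 °C against 30 °C, 3 in place of 0 for the genotypes in iWAT on high fat, and 6 in place of 3 for diet in wildtype iWAT. The count of 4 for wildtype iWAT at 20 °C against 30 °C was 2 without 7 outlying libraries, and the count of 3 for the iWAT genotype by temperature interaction was 1 with summed rows. The count of 1 for diet in knockout iBAT was 0 without the filter, with median-ratio scaling, with only the groups compared and without the 7 libraries, 2 with summed rows or the RefSeq row, and 3 with the coverage index. The count of 1 for the iWAT genotype by diet interaction was 0 without the filter, with median-ratio scaling and with the coverage index, and 2 with quantile normalization, summed rows, only the groups compared, array weights and the RefSeq row. The count of 1 for the depot by temperature interaction in the knockout was 3 with summed rows and 2 with a pseudocount of 0.1, quantile normalization, only the groups compared, array weights and the coverage index. The cause of these shifts was not tested. Leaving out each library in turn was not run, since groups hold 8.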
